A study of Mus musculus with 2 samples.

Results

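The genes described here encode the proteins of the mitochondrial ribosome. They were taken as every gene of the deposited tables whose symbol starts with Mrpl or Mrps followed by a digit, pseudogene symbols ending in -ps left out, which gave 78 of 32285 genes. Of these, 49 carry a large subunit name (Mrpl) and 29 a small subunit name (Mrps), and all 78 had at least 1 count in endothelial cells. The study sequenced RNA of single liver cells from mice at postnatal day 15, sorted by flow cytometry as endothelial and hematopoietic cells. There were 2 libraries, 1 from control mice and 1 from mice labelled as having an endothelial cell knockout of c-Maf (gene symbol Maf), a transcription factor of liver sinusoidal endothelium, and each pooled 1 male and 1 female. The sources used here do not name the promoter or Cre line behind the knockout. With 1 library per genotype no test of genotype was possible and no p-value is given: every interval below is a 95% interval of counting error only (exact Poisson for a level, exact binomial for a ratio), and differences between mice are not in it.

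Mitochondrial ribosomes translate the few messenger RNAs that the mitochondrial genome encodes, all of them for subunits of the respiratory chain and ATP synthase. Their RNAs come from the mitochondrial genome, while all their proteins are made from nuclear genes in the cytosol and imported. The small subunit binds the messenger RNA and the large subunit forms the peptide bond. A core of these proteins has counterparts in bacterial ribosomes, and the others are found only in mitochondria. Transcripts of these genes are present in nearly all nucleated cells and are known to be more abundant in growing and dividing cells.

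Nuclear genes for mitochondrial proteins are known for promoters with sites of the factors NRF1, ETS family members such as GABP, and YY1, so the stretch before the transcription start is shown for 6 members: 4 with an NRF1 match, the called member whose ratio in endothelial cells was highest (Mrpl16), and the member whose ratio was lowest (Mrpl50). Each is the 250 bases before the RefSeq start on the gene's strand, 5′ to 3′, in build GRCm38.p6, and capitals mark matches to GCGCATGCG (NRF1), CCGGAAG (ETS), AAGATGGCG (YY1) or CACGTG (E-box, the site of MYC and its relatives), searched on both strands. They lie at chr17:35916441-35916690 on the minus strand (Mrps18b), chr7:105811088-105811337 on the minus strand (Mrpl17), chr11:58171414-58171663 on the plus strand (Mrpl22), chr3:94443086-94443335 on the plus strand (Mrpl9), chr19:11770165-11770414 on the plus strand (Mrpl16) and chr4:49521084-49521333 on the minus strand (Mrpl50).
Mrps18b: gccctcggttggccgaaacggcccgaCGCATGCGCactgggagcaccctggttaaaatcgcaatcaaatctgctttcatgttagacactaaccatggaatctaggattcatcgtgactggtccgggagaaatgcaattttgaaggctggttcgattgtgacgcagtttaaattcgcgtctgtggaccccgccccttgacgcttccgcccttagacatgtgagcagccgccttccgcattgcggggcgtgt
Mrpl17: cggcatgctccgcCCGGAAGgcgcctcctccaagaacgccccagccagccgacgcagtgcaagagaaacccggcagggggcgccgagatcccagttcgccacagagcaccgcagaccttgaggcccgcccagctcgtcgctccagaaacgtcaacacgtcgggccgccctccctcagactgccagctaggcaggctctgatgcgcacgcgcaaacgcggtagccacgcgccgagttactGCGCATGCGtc
Mrpl22: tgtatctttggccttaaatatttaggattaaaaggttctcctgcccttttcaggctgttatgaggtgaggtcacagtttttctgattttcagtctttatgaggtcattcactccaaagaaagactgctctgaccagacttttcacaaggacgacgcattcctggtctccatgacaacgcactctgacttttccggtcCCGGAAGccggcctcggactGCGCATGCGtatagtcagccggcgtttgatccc
Mrpl9: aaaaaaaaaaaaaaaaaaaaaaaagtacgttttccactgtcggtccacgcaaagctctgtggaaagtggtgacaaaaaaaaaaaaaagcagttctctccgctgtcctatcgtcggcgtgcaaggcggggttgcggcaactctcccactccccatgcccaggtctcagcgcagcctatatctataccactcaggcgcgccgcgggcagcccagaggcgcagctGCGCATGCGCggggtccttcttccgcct
Mrpl16: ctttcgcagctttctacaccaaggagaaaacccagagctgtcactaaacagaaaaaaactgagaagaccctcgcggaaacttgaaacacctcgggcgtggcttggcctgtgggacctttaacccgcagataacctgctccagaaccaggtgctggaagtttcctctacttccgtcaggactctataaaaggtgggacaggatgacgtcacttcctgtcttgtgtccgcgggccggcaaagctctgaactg
Mrpl50: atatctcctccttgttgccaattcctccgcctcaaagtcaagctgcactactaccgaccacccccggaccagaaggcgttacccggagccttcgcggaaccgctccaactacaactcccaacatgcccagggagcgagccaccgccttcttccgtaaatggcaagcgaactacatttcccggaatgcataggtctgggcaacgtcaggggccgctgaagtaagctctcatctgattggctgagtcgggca
In Mrpl17 and Mrpl22 a CCGGAAG and a GCGCATGCG stood in the same stretch, in Mrpl9 the capitals are NRF1 matches on both strands that overlap, and in Mrpl16 and Mrpl50 none of these letters was found in this window. Over the 75 RefSeq promoter windows of 69 matched members (300 bases, from 250 before to 50 after the start), GCGCATGCG was found in 9.33%, against 3.73% of the 11792 windows of all genes tested in endothelial cells and 1.75% of all 32851 windows. CCGGAAG was found in 34.7%, 18.0% and 8.86% of these windows in that order, and AAGATGGCG in 10.7%, 3.13% and 1.40%. CACGTG stood in 9.33% of member windows and 9.93% of windows of tested genes, and CCAAT in 40.0% and 37.9%. The 7 members with an NRF1 match were Mrpl9, Mrpl10, Mrpl17, Mrpl22, Mrpl32, Mrpl39 and Mrps18b. Their endothelial ratios were not alike: the log2 ratio was 0.61 for Mrps18b, 0.51 for Mrpl17, 0.07 for Mrpl10 and 0.04 for Mrpl22. It was 0.03 for Mrpl32, -0.0017 for Mrpl39 and -0.12 for Mrpl9, and none of the 7 had an interval below 0. A match is a description of the sequence and not evidence of binding.

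The control library held 9038 cell barcodes with 54143192 UMIs (unique molecular identifiers, each counting 1 captured RNA molecule), of which the authors annotated 7669 cells, 2948 of them endothelial. The c-Maf KO library held 9058 barcodes with 60281713 UMIs, 8166 annotated and 2991 endothelial cells, and 21 annotated barcode sequences occurred in both. The authors' annotation had 23 clusters, 7 of them endothelial (S, S2, KOS_1, KOS_2, KOS_3, PV and C-EC). Clusters KOS_1, KOS_2 and KOS_3 held 1356, 518 and 238 cells of the c-Maf KO library but 1, 21 and 2 control cells, while S and S2 held 1320 and 1459 control cells against 223 and 113 of the KO library. Maf itself was at 2070 CPM (its UMIs per 1e6 UMIs of the summed cells) in control and 162 CPM in c-Maf KO endothelial cells. Within the KO library Maf stood at 1998 CPM in S2 and 1457 CPM in S but at 9.32 CPM in KOS_1, against 2327 CPM in control S2, so the cells of the KO library in S and S2 still had Maf transcripts. All 7 endothelial markers were detected in both libraries, and their sum was 6066 CPM in control and 4750 CPM in KO endothelial cells, while sinusoidal markers summed to 11930 and 3387 CPM. The median endothelial cell had 4985.5 UMIs in control and 7320 in the KO library.

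In endothelial cells as a whole the mitoribosomal protein transcripts together took a larger share of the RNA in the c-Maf KO library. Their sum was 4238 CPM (4207 to 4270, from 68823 UMIs) in control and 5112 CPM (5083 to 5142, from 115643 UMIs) in KO cells, a log2 ratio of 0.27 (0.26 to 0.28). The median cell carried 20 member UMIs in control and 34 in the KO library. The shift was spread over many members: the log2 ratio was above 0 for 67 of 78, and the median member stood at 0.29 while the median of all 11927 genes tested stood at -0.08. The interval lay above 0 for 52 members, below 0 for 3 and included 0 for 23. A member was called where its levels differed by at least 1.5-fold, its interval excluded equality and it had at least 50 UMIs over both sums; 8 members were called higher and 0 lower, where 14.2% and 15.5% of all tested genes were called in these directions. At a smaller fold, a log2 ratio of 0.32 or more, 32 members were higher and 2 lower (all genes: 21.8% and 28.2%). Every member had at least 398 UMIs over both libraries, and no single cell held more than 14 UMIs of a member.

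**Figure D1:**
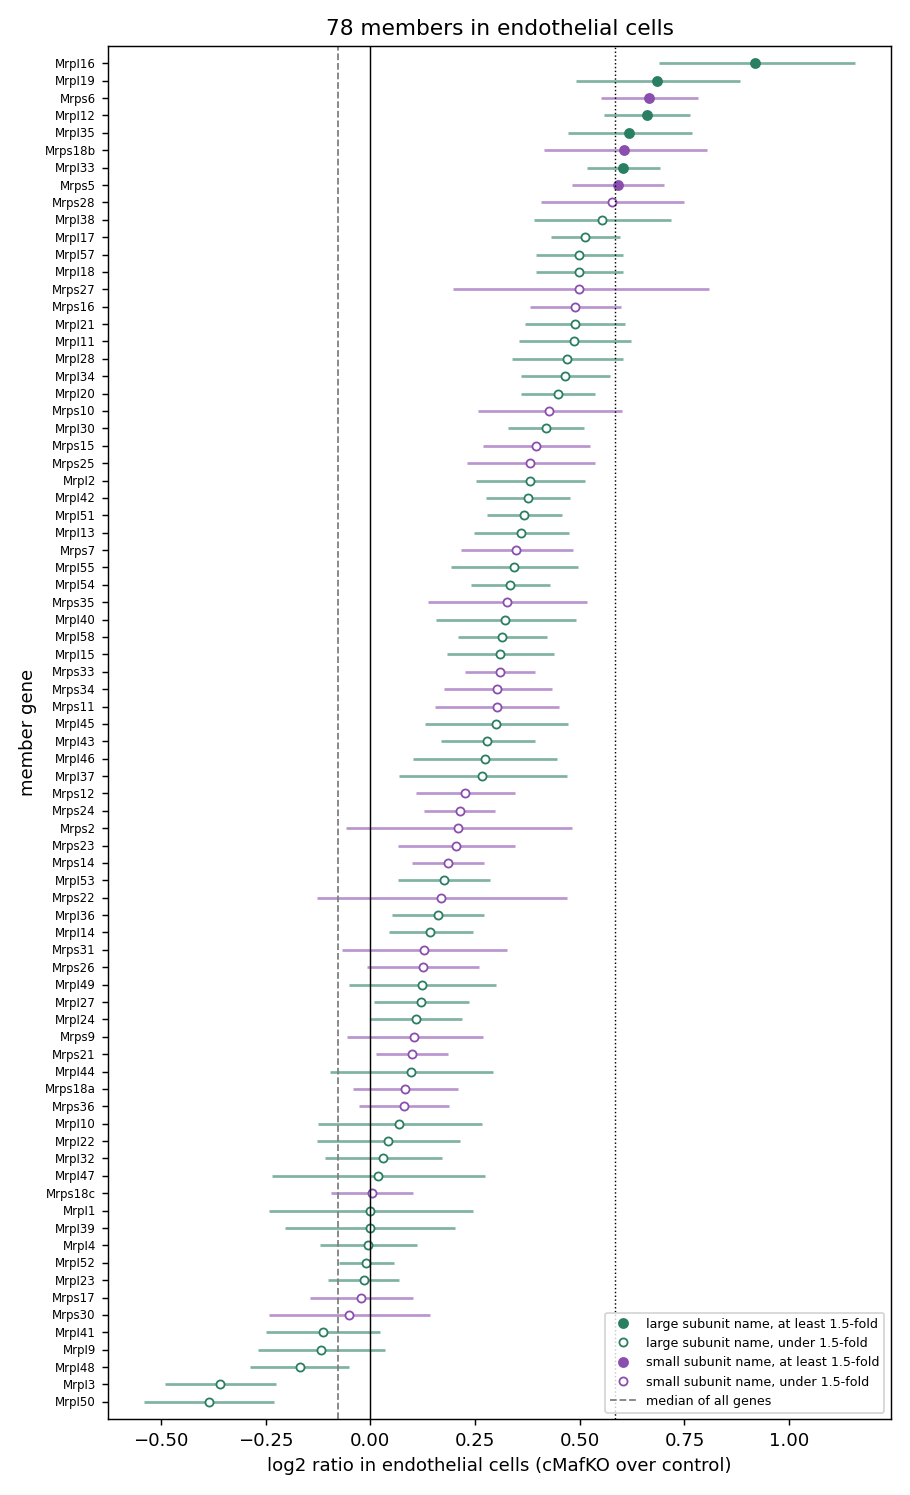
Log2 ratio (c-Maf KO over control) of each of the 78 members in endothelial cells with 95% counting intervals, filled points being members past 1.5-fold; the dashed line is the median of all genes. Most members lie to the right of 0, with 8 past the dotted 1.5-fold line, and Mrpl50 and Mrpl3 lie farthest to the left.

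Cycling markers and other cell types' transcripts also differed between the libraries. The 10 cycling markers summed to 253 CPM in control and 760 CPM in KO endothelial cells, all 10 were called higher, and 520 control cells (17.6%) and 1349 KO cells (45.1%) held at least 1 UMI of them. Without those cells the log2 ratio of the members' sum was 0.19 and 3 members were called higher and 0 lower, where 10.3% and 13.1% of all genes were. A deeper cell holds a marker UMI more readily, and the median was 4985.5 UMIs in control and 7320 in KO cells. This step thus also removes deep cells that need not be dividing. C-EC, with the markers at 5275 and 4137 CPM, held only 89 control and 408 KO cells. Hepatocyte transcripts summed to 202 and 72.0 CPM, erythroid transcripts to 141 and 71.5 CPM, leukocyte transcripts to 613 and 363 CPM, and stellate and mesenchymal transcripts to 61.3 and 29.3 CPM in control and KO cells; their part in the members' result was not tested. The sexes are mixed in each library, so cells were also split by Xist and Y-linked transcripts. Cells of female type gave 4399 CPM (772 control cells) and 4991 CPM (1692 KO cells), a log2 ratio of 0.18, and cells of male type gave 3921 CPM (846 cells) and 5367 CPM (328 cells), a log2 ratio of 0.45, so the members' sum was higher in the KO library in both.

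The highest ratio belonged to Mrpl16, a large subunit protein with a bacterial counterpart (chr19:11770391-11774960, plus strand, GRCm38). It stood at 12.9 CPM in control and 24.4 CPM in KO endothelial cells, a log2 ratio of 0.92 (0.69 to 1.16). It was at 12.5 and 27.7 CPM in C-EC cells and at 15.5 and 28.6 CPM in S cells of the control and KO libraries, and it met the rule in both clusters. In S2 cells it was at 12.0 and 12.3 CPM. Mrpl16 was thus higher in the KO library in C-EC and S, but on few UMIs. It had 8 control and 97 KO UMIs in C-EC (interval 0.10 to 2.39) and 53 and 27 in S (0.16 to 1.58). In S2, which held only 113 KO cells, the interval included 0.

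Mrpl12, a protein of the large subunit's stalk that is also known to bind the mitochondrial RNA polymerase (chr11:120484613-120489065, plus strand), stood at 69.0 CPM in control and 109 CPM in KO endothelial cells, a log2 ratio of 0.66 (0.56 to 0.76). Its levels in the KO library were 56.6 CPM in S2, 80.6 CPM in S, 112 CPM in KOS_1, 121 CPM in KOS_2, 86.7 CPM in KOS_3 and 129 CPM in C-EC. In the control library it was at 65.3 CPM in S2, 73.2 CPM in S and 104 CPM in C-EC. KOS_1, KOS_2 and C-EC of both libraries were thus high for Mrpl12, while S2 of the 2 libraries differed little. KOS_3 stood near S and near PV, which was at 89.8 CPM in control and 78.8 CPM in the KO library. Mrps5 (chr2:127587222-127606829, plus strand), a small subunit protein near the messenger RNA entry, stood at 61.4 and 92.5 CPM in all endothelial cells, a log2 ratio of 0.59 (0.48 to 0.70), with 60.9 and 57.6 CPM in S2 and 103 CPM in KOS_1. Unlike Mrpl12, it was not high in control C-EC (48.6 CPM), and it stood at 72.4 CPM in C-EC of the KO library. Mrpl33 (chr5:31596935-31664384, plus strand) stood at 97.7 and 148 CPM, a log2 ratio of 0.60 (0.52 to 0.69), with 89.9 and 86.4 CPM in S2 and 152 CPM in KOS_1. Mrps18b (chr17:35910379-35916389, minus strand), whose promoter with an NRF1 match is printed above, stood at 20.01 and 30.5 CPM, a log2 ratio of 0.61 (0.42 to 0.80).

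Mrpl19 (chr6:81957851-81965958, minus strand) stood at 19.2 and 30.9 CPM in endothelial cells, a log2 ratio of 0.68 (0.49 to 0.88), and was at 20.5 and 32.9 CPM in S, where it met the rule too. Mrpl35 (chr6:71812997-71826969, minus strand) stood at 33.7 and 51.7 CPM, a log2 ratio of 0.62 (0.47 to 0.77), and among endothelial clusters of the KO library its level was highest in KOS_2, at 71.6 CPM. Mrps6 (chr16:92058270-92112227, plus strand) stood at 54.1 and 85.9 CPM, a log2 ratio of 0.66 (0.55 to 0.78), with 62.1 and 61.5 CPM in S, 52.7 and 49.4 CPM in S2, 93.5 CPM in KOS_1 and 40.8 and 83.2 CPM in C-EC. Exons of Mrps6 overlap those of Slc5a3 on the same strand, and Mrpl33 overlaps an unnamed gene model likewise, so how the authors' counting divided those reads is uncertain. Exons of Mrpl12, Mrpl19 and Mrps18b overlap another gene on the opposite strand, whose reads cannot be told apart from theirs where counting ignored strand. Of the 8 called members, 6 had an interval that included 0 in the S comparison and all 8 in the S2 comparison. Just inside the 1.5-fold limit stood Mrps5 at 0.59, and just outside it Mrps28 at 0.58.

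A few members went the other way. Mrpl50, a large subunit protein found only in mitochondria, had 40.6 CPM in control and 31.1 CPM in KO endothelial cells, a log2 ratio of -0.39 (-0.54 to -0.23). In S2 it was at 39.5 and 19.6 CPM and in S at 45.7 and 28.6 CPM, and it was called lower in both clusters. These calls rest on few KO cells: S2 held 113 of them. In S it had 156 control and 27 KO UMIs (interval -1.32 to -0.078). Mrpl3, a large subunit protein with a bacterial counterpart, had 55.2 and 43.1 CPM, a log2 ratio of -0.36 (-0.49 to -0.23), and Mrpl48 had 64.6 and 57.5 CPM, a log2 ratio of -0.17 (-0.29 to -0.05). These 3 are the members whose interval lay below 0, and none reached 1.5-fold in endothelial cells as a whole. Mrpl9 at -0.12, Mrpl41 at -0.11, Mrps30 at -0.05, Mrps17 at -0.02 and Mrpl23 at -0.02 completed the 8 lowest log2 ratios.

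Both subunits had medians above 0. Large subunit members had a median log2 ratio of 0.30 with 5 of 49 called higher, and small subunit members 0.23 with 3 of 29, where 14.2% of all genes were called higher. Symbols follow history in a few cases: Mrps18a and Mrps30, named for the small subunit, are now placed in the large one, and Mrps36 is now known as a component of the α-ketoglutarate dehydrogenase complex. The large subunit members' share of the summed level lay between 64.1% and 69.0% in all 39 pairs of cluster and library with at least 50 cells. Members numbered like bacterial proteins (Mrps up to 21 and Mrpl up to 36) had a median of 0.33 with 8 of 44 called, and the others a median of 0.27 with 0 of 34 called. Against the 14.2% of all genes called higher these counts are not read as a difference, and both medians lay above that of all genes.

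Compared cluster by cluster, the members' sum was close between libraries in the sinusoidal clusters that both libraries filled. In S it was 4671 CPM (4599 to 4744) in control and 4632 CPM (4496 to 4771) in the KO library, a log2 ratio of -0.012 (-0.061 to 0.036), with 3 members called higher and 2 lower of 74 tested (all genes: 6.24% and 2.55%). In S2 it was 4050 CPM (4014 to 4087) and 4033 CPM (3908 to 4161), a log2 ratio of -0.0062 (-0.054 to 0.041), with 1 higher and 3 lower of 78 (all genes: 3.36% and 3.34%). In PV it was 4604 CPM (4405 to 4811) and 4514 CPM (4391 to 4641), a log2 ratio of -0.029 (-0.10 to 0.047), with 1 higher and 3 lower of 56 (all genes: 6.08% and 6.26%). Intervals of these 3 comparisons thus include 0. Nearly all KO cells of S2 were of female type, so differences of sex and animal may enter its comparison.

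C-EC was the exception among endothelial clusters. Its members' sum was 5188 CPM (5013 to 5368) in 89 control cells and 5744 CPM (5665 to 5824) in 408 KO cells, a log2 ratio of 0.15 (0.094 to 0.20), which was 0.31 with CPM computed without ribosomal, mitochondrial, hemoglobin and immunoglobulin transcripts and 0.089 as a mean over cells. The median member stood at 0.10 against -0.15 for all genes, and 7 members were called higher and 0 lower of 78, against 5.70% and 14.6% of all genes. They were Mrpl16, Mrpl17 (91.0 and 189 CPM, log2 1.04), Mrps6, Mrps18b, Mrps28, Mrpl34 and Mrpl57. The lowest ratio in C-EC was that of Mrps30, at -0.59.

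With the control library's mix of clusters applied to both libraries, the members' sum no longer differed in endothelial cells. The log2 ratio went from 0.27 to -0.00043 and the median member from 0.29 to -0.02. Calls under that mix were by size and UMI minimum alone, with no interval. By that rule 0 members were higher and 4 lower (all genes under that mix: 6.35% and 8.70%). That mix holds only clusters with enough cells in both libraries, so the clusters KOS_1, KOS_2 and KOS_3 do not enter it. The clusters were drawn by the authors from the expression of all genes in both libraries, members included, so a comparison between clusters describes them and tests nothing.

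**Figure D2:**
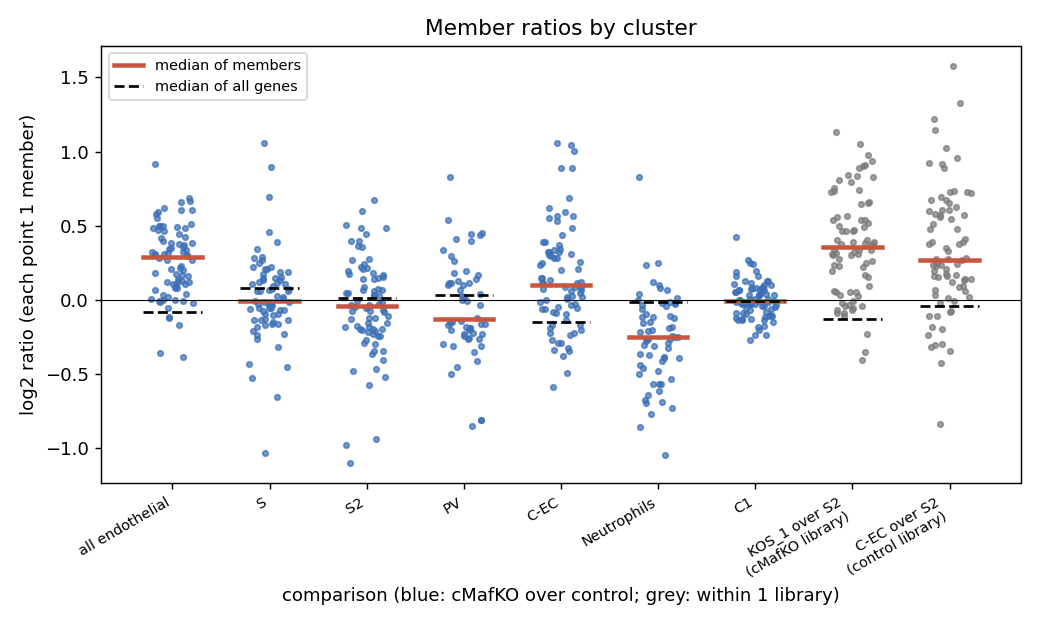
Log2 ratio of each member (points) in 7 comparisons of c-Maf KO over control (blue) and 2 comparisons of clusters within 1 library (grey), with the median of members (red bar) and of all genes (dashed). The members' median is above 0 in all endothelial cells, in C-EC and in both comparisons within a library, near 0 in S, S2 and C1, and below 0 in PV and Neutrophils.

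Within the KO library, where cells share a library, KOS_1 had a higher members' sum than S2, 5161 CPM (5124 to 5199) against 4033 CPM, a log2 ratio of 0.36 (0.31 to 0.40). The median member stood at 0.36 and the median gene at -0.12, and 18 members were called higher and 0 lower of 78 (all genes: 9.71% and 17.1%). Of the 8 members called in endothelial cells as a whole, 6 were among those 18, namely Mrpl12, Mrpl16, Mrpl33, Mrps5, Mrps6 and Mrps18b. KOS_1 gave 14059095 of the 22621086 UMIs of KO endothelial cells, so this overlap is in part built in. The overlap over all genes was not computed, and no separate support is drawn from it. The largest ratios were those of Mrpl39 (9.26 and 21.4 CPM in S2 and KOS_1, log2 1.13) and Mrps10, a small subunit head protein (17.5 and 37.3 CPM, log2 1.05). Mrpl39 rested on 9 UMIs in KO S2. Against control S2 (20.9 CPM) its log2 ratio in KOS_1 was only 0.037 (-0.21 to 0.29), while that of Mrps10 was 0.59 (0.38 to 0.80). Mrpl50, low in KO endothelial cells as a whole, was higher in KOS_1 than in KO S2 (31.6 and 19.6 CPM, log2 0.66) but lower than in control S2 (39.5 CPM). The medians were 0.33 for large and 0.38 for small subunit members.

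This difference between KOS_1 and S2 kept its direction in each subset of cells examined. It was 0.32 in female-type cells (111 cells of S2 and 920 of KOS_1), 0.31 without cells that held a cycling marker UMI, and 0.27 among cells of 5000 to 10000 UMIs, where the levels were 4140 and 4985 CPM. Of the 113 S2 cells of the KO library, 111 were of female type. S2 there thus stands almost wholly for 1 animal, and male-type cells were too few to compare. Depth differed between clusters, so levels were also set side by side at matched depth. Among cells of 5000 to 10000 UMIs, S2 stood at 4137 CPM in control and 4140 CPM in the KO library, and C-EC at 5279 and 5440 CPM. S stood at 4813 CPM (4674 to 4954, 144 cells) in control and 4425 CPM (4231 to 4625, 65 cells) in the KO library. In this range S was thus lower in the KO library, with intervals apart. Among cells of at least 10000 UMIs, S2 stood at 4028 and 3934 CPM, KOS_1 at 5212 CPM and C-EC at 5087 and 5869 CPM. Within the KO library S2, KOS_1 and C-EC kept this order in both depth ranges, whereas among cells of 2000 to 5000 UMIs KOS_1 stood above C-EC, at 5629 and 5303 CPM. At 2000 to 5000 UMIs control C-EC stood at 5422 CPM (21 cells), above C-EC of the KO library, with overlapping intervals. Over S, which had the higher members' sum of the sinusoidal clusters in control, KOS_1 was higher by a log2 ratio of 0.16 (0.11 to 0.20), and S over S2 was 0.21 in control and 0.20 in the KO library.

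**Figure D3:**
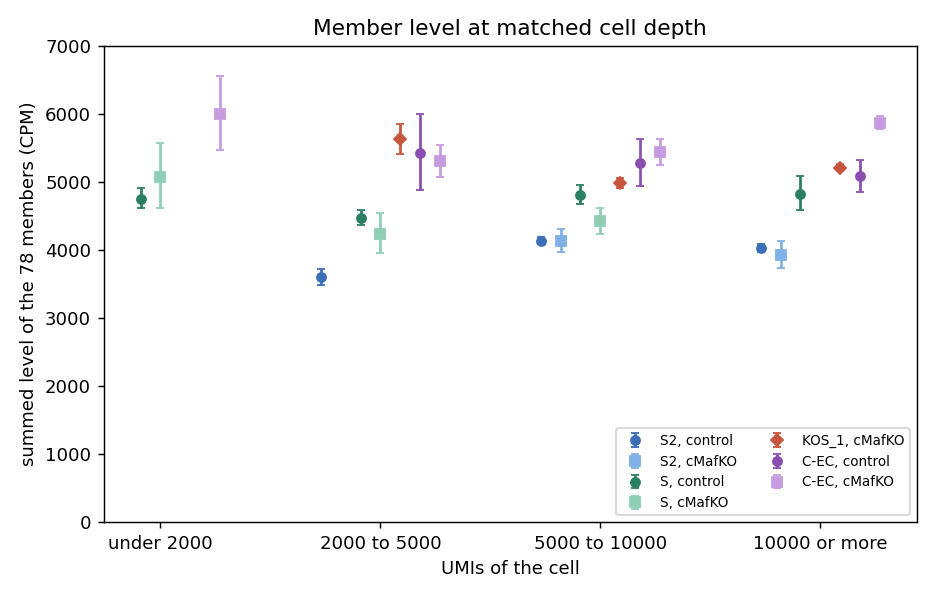
Members' summed level (CPM, with 95% counting intervals) by UMIs of the cell for endothelial clusters of each library. At 5000 to 10000 UMIs both S2 points lie near 4140 CPM, KOS_1 lies at 4985 CPM and C-EC lies at 5279 and 5440 CPM.

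The 3 clusters of KO cells differed among themselves. KOS_2 stood at 5538 CPM (5406 to 5672), a log2 ratio of 0.10 over KOS_1, and KOS_3 at 3555 CPM (3426 to 3688), a log2 ratio of -0.54 (-0.59 to -0.48). KOS_2 cells were shallow (median 1644.5 UMIs against 10305). Among cells of 2000 to 5000 UMIs KOS_2 stood at 5510 CPM and KOS_1 at 5629 CPM, with overlapping intervals. Among cells of 5000 to 10000 UMIs they stood at 5516 CPM (23 cells of KOS_2) and 4985 CPM. In KOS_3 over KOS_1 the median member stood at -0.50 against 0.07 for all genes, and 0 members were called higher and 29 lower of 78 (all genes: 13.4% and 10.4%). Mrpl55 was lowest, at 43.5 CPM in KOS_1 and 11.2 CPM in KOS_3, followed by Mrpl34, Mrps16 and Mrpl36. KOS_3 cells also had fewer UMIs (median 3178.5 against 10305), and the 13 mitochondrially encoded messenger RNAs took 130785 CPM there against 64084 CPM in KOS_1; their part in the members' lower level was not tested. In the control library, C-EC over S2 gave a log2 ratio of 0.36 (0.31 to 0.41) with 19 members called higher and 1 lower of 78 (all genes: 11.6% and 10.1%). The largest was Mrpl51, at 85.3 CPM in S2 and 254 CPM in C-EC (log2 1.58), and the lower one was Mrpl41 (49.0 and 26.7 CPM, log2 -0.84).

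Over all clusters with at least 50 cells in a library, the members' sum ran from 2394 to 7450 CPM, a 3.11-fold range that was far wider than any difference between libraries. Cluster C1 was highest, at 7450 CPM (7354 to 7547) in control and 7409 CPM (7342 to 7477) in the KO library, and it had the cycling markers at 5068 and 4817 CPM. In control, H at 6077 CPM (5778 to 6387), CLP at 6014 CPM (5755 to 6282) and B1 at 5894 CPM (5745 to 6047) followed, with intervals that overlap. In the KO library, CLP at 5970 CPM (5825 to 6118) was followed by C-EC at 5744 CPM, B1 at 5736 CPM and T-Foxp3 at 5638 CPM (5668 CPM in control), and the intervals of these last 3 overlap. Neutrophils were lowest, at 2784 CPM (2709 to 2860) in control and 2394 CPM (2337 to 2452) in the KO library, below every endothelial cluster. Leukocyte transcripts took 254630 and 268581 CPM there, and most other genes were lower too. In Neutrophils over Leukocytes_1 the median gene stood at -0.70 in control and -0.73 in the KO library. The median member stood at -1.08 and -1.36. The B cell clusters went down from B1 to B2 (5303 and 5185 CPM) to B3 (4379 and 4232 CPM) in both libraries. Endothelial clusters were spread over this order, from C-EC and KOS_2 in its upper part in the KO library (C-EC was in the middle in control) to S2, which had the next level above Neutrophils in control and above KOS_3 in the KO library.

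**Figure D4:**
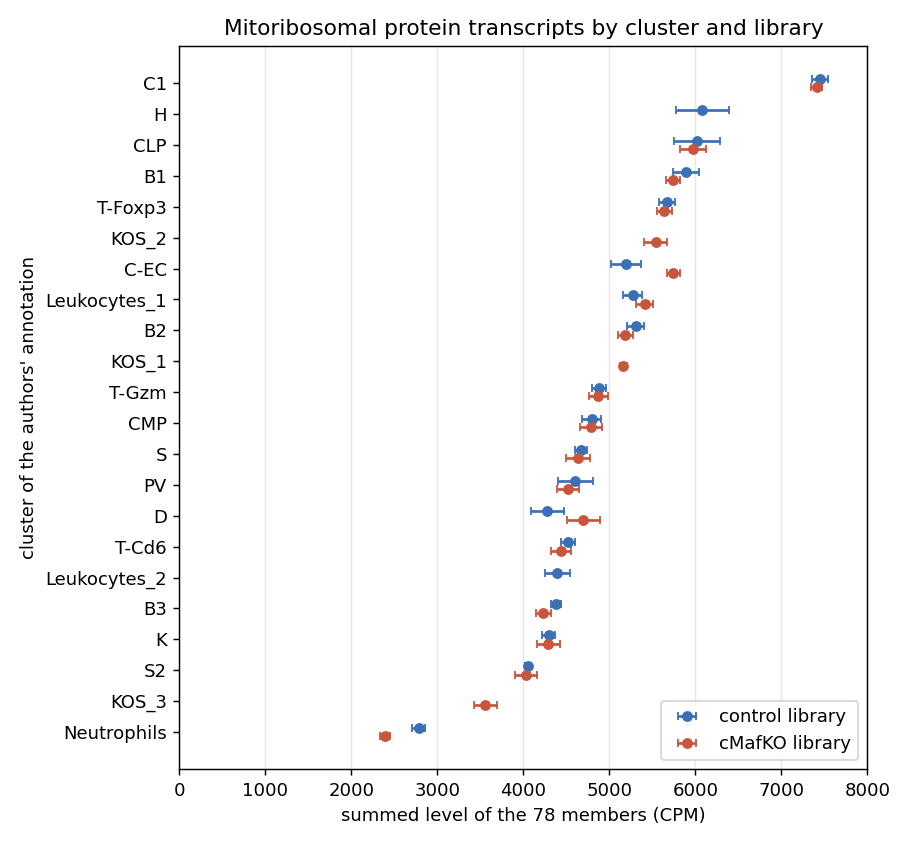
Members' summed level (CPM, with 95% counting intervals) in each cluster of at least 50 cells in the control (blue) and c-Maf KO (red) library. C1 is highest and Neutrophils lowest in both libraries, and the libraries lie close together in most clusters that both filled.

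Hematopoietic cells of mice labelled with an endothelial knockout showed small differences between libraries. In 11 of 12 clusters compared the log2 ratio of the members' sum lay between -0.05 and 0.04, and the median member between -0.04 and 0.05. The interval excluded 0 in B3, at -0.049 (-0.085 to -0.013), and in Neutrophils, at -0.22 (-0.27 to -0.17). In Neutrophils the median member stood at -0.25 against -0.014 for all genes, and 1 member was called higher and 7 lower of 63 tested (all genes: 3.46% and 5.30%). The lowest was Mrps11, at 18.3 CPM in control and 8.83 CPM in the KO library (log2 -1.05), followed by Mrpl4 (28.8 and 15.9 CPM), and the higher one was Mrpl49 (8.38 and 15.2 CPM, log2 0.83). Cycling markers moved with it, from 1261 CPM in control to 717 CPM in KO neutrophils. Erythroid transcripts differed more, at 2200 CPM in control and 44.9 CPM in KO neutrophils, and their part was not tested. Without cells that held a cycling marker UMI the log2 ratio of the members' sum was -0.020, and with cells thinned to 1 depth it was -0.030. Cluster D, to which the annotation gave no type, stood at 0.14 (0.048 to 0.22).

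The members with the highest and lowest ratios varied from cluster to cluster. Each is the extreme of all members tested in its cluster, so counting error alone can give such values. Both extremes in B1, K and T-Cd6 had intervals that included 0, as had several others below. Mrps27 in B1, for example, rested on 8 control UMIs (interval -0.34 to 2.06). In S the highest was Mrpl37 (16.4 and 33.9 CPM, log2 1.06) and the lowest Mrps31 (22.5 and 10.6 CPM, log2 -1.03). In S2 the highest was Mrpl55 (31.9 and 50.4 CPM, log2 0.67) and the lowest Mrpl39 (20.9 and 9.26 CPM, log2 -1.10), the latter resting on 9 UMIs in the KO library. In PV they were Mrps5 at 0.83 and Mrpl48 at -0.85. In B cells, B1 ran from Mrpl16 at -0.44 to Mrps27 at 0.69, B2 from Mrps28 at -0.80 (63.9 and 36.7 CPM) to Mrpl50 at 0.55, and B3 from Mrps6 at -0.55 to Mrps22 at 0.94 (8.55 and 16.4 CPM). In T cell clusters, T-Cd6 ran from Mrpl10 at -0.63 to Mrpl50 at 0.47, T-Foxp3 from Mrpl41 at -0.46 to Mrpl39 at 0.50, and T-Gzm from Mrpl10 at -0.69 to Mrpl9 at 0.48. The progenitor-named clusters ran from Mrpl28 at -0.59 to Mrpl53 with 32.7 and 67.9 CPM (CLP) and from Mrps6 at -0.77 to Mrps35 at 0.55 (CMP). K ran from Mrpl45 at -0.76 to Mrpl1 at 0.69, Leukocytes_1 from Mrps28 at -0.71 to Mrps22 at 0.72, D from Mrpl32 at -0.54 to Mrpl58 at 1.42, and C1, the cluster of highest level, only from Mrpl9 at -0.27 to Mrpl45 at 0.42. Mrps28, Mrps6 and Mrpl10 were each the lowest member in 2 blood cell clusters.

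Members differed in how widely they ranged across clusters. Mrps6 ranged most, from 3.53 CPM in KO Neutrophils to 95.5 CPM in KOS_2, a log2 range of 4.76, and it was higher in each sinusoidal and PV cluster (44.6 to 93.5 CPM outside KOS_2) than in most blood cell clusters, such as T-Foxp3 at 35.6 CPM in both libraries and B3 at 15.3 and 10.3 CPM. Mrpl50 ran from 6.01 CPM in KO Neutrophils to 98.0 CPM in control H, a log2 range of 4.03. Mrps28 ran from 6.01 CPM in KO Neutrophils to 86.2 CPM in control CLP, with 71.6 and 71.2 CPM in C1. Mrpl49, at 8.38 CPM in control Neutrophils, reached 109 CPM in control B1 and 90.6 CPM in KO B1, above the other B cell clusters in both libraries. Mrps22 ran from 3.14 CPM in control Neutrophils to 40.6 CPM in control C1. These 5 widest ranges all had Neutrophils as the low end, as had most members. The low ends rested on few UMIs: 10 for Mrps6, 17 each for Mrpl50 and Mrps28, 16 for Mrpl49 and 6 for Mrps22. Each range is between the extremes of 39 values, so counting error widens it.

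Other genes of the same pathway in endothelial cells were read from lists chosen with earlier results of these data known. Mitoribosomal proteins that carry other symbols had a median log2 ratio of 0.38 over 5 genes, close to that of the members, and 1 was called higher: Gadd45gip1 (30.5 and 50.7 CPM, log2 0.73). Mitochondrial translation factors had a median of 0.18 with 0 of 18 called. Of 27 genes for mitoribosome assembly and ribosomal RNA modification, 3 were called higher and 1 lower, with a median of 0.08. The higher ones were C1qbp, a matrix protein that binds RNA (63.8 and 125 CPM, log2 0.97), the GTPase Noa1 (7.94 and 15.1 CPM, log2 0.92) and the methyltransferase Mrm3 (log2 0.88), and the lower one was the methyltransferase Mrm2 (15.1 and 9.68 CPM, log2 -0.64). Mitochondrial aminoacyl-tRNA synthetases had 2 of 17 called higher (Ears2 at 0.61 and Mars2 at 0.59) and a median of 0.24.

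The messenger RNAs that mitoribosomes translate had a median ratio near 0. These 13 mitochondrially encoded transcripts summed to 70696 CPM in control and 67942 CPM in KO endothelial cells, with a median log2 ratio of -0.02 and 0 called, from mt-Nd2 at -0.29 to mt-Nd6 at 0.48. Nuclear-encoded respiratory chain genes of a short list had a median of 0.38 with 1 of 18 called higher, the ATP synthase subunit Atp5b (412 and 631 CPM, log2 0.61). Genes for mitochondrial DNA maintenance and transcription had 2 of 14 called higher, Primpol at 0.72 and Top1mt at 0.63, and a median of 0.31. Import and chaperone genes, through which the members' proteins pass, had 6 of 29 called higher and a median of 0.19, led by the small Tim proteins Timm8a1 (13.2 and 36.5 CPM, log2 1.46) and Timm10 (15.8 and 42.8 CPM, log2 1.44) and the chaperonin Hspd1 (65.3 and 129 CPM, log2 0.98).

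Of 11 tested regulators of mitochondrial genes, 3 were called higher: Myc (10.8 and 45.2 CPM, log2 2.06), Mycn (1.23 and 4.42 CPM, log2 1.82) and the coactivator Ppargc1b (log2 0.79). The factors named above for such promoters had intervals that included 0, with Nrf1 at -0.06, Yy1 at 0.0039 and the GABP subunits Gabpa at 0.13, Gabpb1 at -0.0047 and Gabpb2 at -0.06. The nuclear receptor Esrra stood lowest, at -0.51, and the list's median was 0.01. Cytosolic ribosomal protein genes moved by more than the members: 54 of 81 were called higher and 0 lower, their median was 0.68, and their sum went from 143654 to 231259 CPM. They stood apart from the members within S2, where their median was 0.22 with 0 of 81 called while the members' was -0.04, and were also higher in KOS_1 than in S2 of the KO library (median 0.67, 53 of 81). Because these and the mitochondrially encoded transcripts take a large part of all UMIs, CPM was also computed without them and without hemoglobin and immunoglobulin transcripts. This moved the median of all genes by 0.16, from -0.08 to 0.08, and the share of all genes called to 18.5% higher and 10.9% lower, and the members' sum then had a log2 ratio of 0.44 with 21 members called higher.

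**Figure D5:**
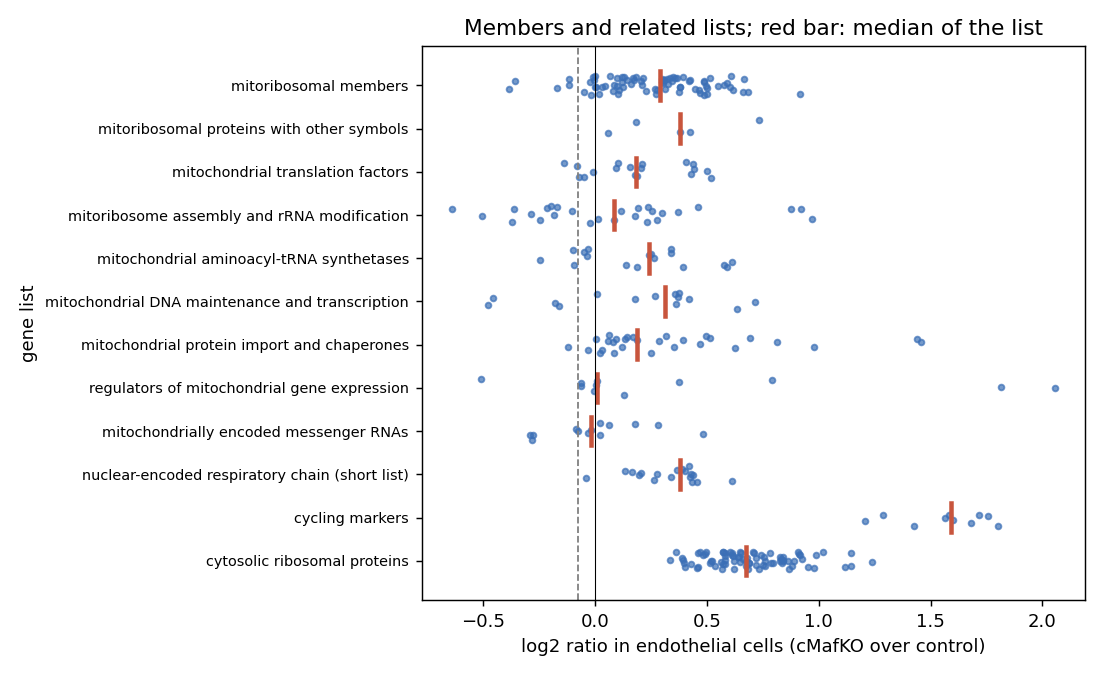
Log2 ratio (c-Maf KO over control) in endothelial cells of each member and each gene of related lists (points), with the list's median (red bar) and the median of all genes (dashed). The members' median of 0.29 lies above 0, cytosolic ribosomal proteins (0.68) and cycling markers (1.59) lie farther right, and mitochondrially encoded messenger RNAs lie near 0.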

How the data were processed

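Liver cells sorted by flow cytometry were profiled on the 10X Chromium, per the labels, which also name TruSeq kits. The deposited tables hold the UMI counts the authors made per gene and cell, with an annotation of cells to clusters (resolution 0.5 in its header). The submitters' processing notes name build mm10 and the tools Seurat 3.2.3, Cell Ranger 4.0.0 and FastQC 0.11.3, with no role or order; gene annotation, strand setting and cell filters are stated in no source used here. Cells without an annotation were left out.

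Counts were summed per library and cluster and divided by all UMIs of those cells (CPM). Log2 ratios had 0.5 UMI added to each sum; clusters needed 50 cells in each library. Intervals cover counting error only, and depth per sum ran from 255219 to 22621086 UMIs. A gene was called at 1.5-fold or more with a 95% interval excluding equality and at least 50 UMIs. Named were members called in endothelial cells, the 8 highest and 8 lowest there (at least 200 UMIs), the extreme members per cluster, the 5 widest ranges over clusters, and up to 3 genes per direction of each related list; other members were picked after their values were seen. Members and lists were chosen with earlier results of these data known. The procedure was tested on simulated counts. Female-type cells had an Xist UMI and none of 4 Y-linked genes, male-type the reverse. Scrublet's automatic threshold marked 1 control and 148 KO cells, so a score of 0.25, chosen after seeing the data, marked 167 (2.18%) and 190 (2.33%) for an alternative; doublets stayed in elsewhere. Positions are from GENCODE M21 on GRCm38; exons of 8 members overlap another gene's on the same strand and of 28 on the opposite one. Promoters are RefSeq's. Python 3.11.15, NumPy 2.4.6, SciPy 1.17.1, pandas 2.3.3 and Scanpy 1.11.5 were used.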

Additional observations from a re-analysis of the deposited data

Results flagged for a closer look

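The members' summed level differed between libraries in opposite directions in endothelial cells and in 2 blood cell clusters: the log2 ratio (c-Maf KO over control) was 0.27 (0.26 to 0.28) in endothelial cells, -0.049 in B3 (4379 and 4232 CPM) and -0.22 in Neutrophils (2784 and 2394 CPM). The direction in B3 did not hold in male-type cells, at 0.0061. Neutrophils were at -0.020 without cells holding a cycling marker UMI and at -0.030 thinned to 1 depth. At the control library's mix of clusters endothelial cells were at -0.00043. That mix leaves out KOS_1, KOS_2 and KOS_3 by construction and keeps 879 KO cells, so it does not describe the KO endothelial cells as a whole. With 1 library per genotype the difference between these ratios was not tested.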

How the results depend on the processing

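The 17 alternatives for endothelial cells, with those for clusters, gave values of which 156 main ones held, 56 moved and 3 reversed; of single members 210 held, 35 fell short of the call rule, 4 newly met it, 18 moved and 5 reversed. The log2 ratio of the members' sum in endothelial cells (0.27) was 0.25 without C-EC, 0.19 without cells holding a cycling marker UMI, 0.18 for cells of female type and 0.45 for those of male type, 0.44 rescaled (without mitochondrial, cytosolic ribosomal, hemoglobin and immunoglobulin UMIs), 0.35 centred on the median gene, 0.21 as a mean over cells, 0.22 thinned to 1128 UMIs (363 control and 231 KO cells were shallower and left out; 4.82 and 5.61 member UMIs per cell) and -0.00043 at the control library's mix of clusters. The median member (0.29) was 0.17 without cells holding a cycling marker UMI, 0.43 in male-type cells, 0.45 rescaled and -0.018 at the control mix. Members called higher (8 of 78, all genes 14.2%) numbered 3 without cells holding a cycling marker UMI (all genes 10.3%). They numbered 1 for female type (11.7%), 24 for male type (14.2%) and 32 at the smaller fold (21.8%). At 2-fold they numbered 0 (7.80%), rescaled 21 (18.5%) and at the control mix 0 (6.35%). Those called lower (0, all genes 15.5%) numbered 2 at the smaller fold (28.2%) and 4 at the control mix (8.70%). Calls at the control mix and for the mean over cells were by size and UMI minimum alone, with no interval. At that mix Mrps5 was at -0.015, Mrpl33 at -0.013, Mrpl12 at -0.087, Mrps6 at -0.014 and Mrps18b at -0.061; that alternative leaves out KOS_1, KOS_2 and KOS_3 by construction, and for the others the cause was not tested.

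By cluster, rescaling gave 0.31 in C-EC and -0.064 in S, and centring 0.29 and -0.092. The mean over cells gave 0.089 in C-EC, -0.13 in Neutrophils and 0.048 in PV. Thinning gave -0.088 in CLP, 0.25 in D, 0.11 in Leukocytes_1, -0.030 in Neutrophils and -0.063 in T-Gzm. Without cells holding a cycling marker UMI Leukocytes_1 was at 0.15, Neutrophils at -0.020 and PV at 0.067. Female-type cells gave -0.14 in B2, -0.14 in B3, -0.16 in K, -0.17 in Leukocytes_1, -0.075 in S2 and -0.071 in T-Foxp3. Male-type cells gave 0.032 in B1, 0.036 in B2, 0.0061 in B3, 0.066 in C1, 0.084 in CMP, 0.17 in K, 0.37 in Leukocytes_1, 0.095 in T-Cd6, 0.093 in T-Foxp3 and 0.048 in T-Gzm. KOS_1 over S2 was 0.27 at 5000 to 10000 UMIs and 0.55 rescaled, and KOS_1 over S 0.25 rescaled. C-EC over KOS_1 (0.15) was 0.19 in male-type cells, 0.13 at 5000 to 10000 UMIs and 0.11 rescaled. The fold and UMI limits do not act on a summed level. No paired analysis was possible because each genotype has 1 library and the labels give no replicate numbers.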

Other observations

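Among annotated blood cells the sex type of the cells went with the direction of the small differences between libraries. In female-type cells the log2 ratio (c-Maf KO over control) of the members' sum was below 0 in 11 of 12 hematopoietic clusters, from -0.18 to 0.0054, and in male-type cells it was above 0 in 10 of 11, from -0.19 to 0.37. The ratio of male-type cells was above that of female-type cells in 10 of the 11 clusters with both. Each library pooled 1 male and 1 female, so sex type here stands for 1 animal of each library, and animal and sex cannot be told apart.

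Barcodes to which the authors gave no cluster carried the members at 5505 CPM (5457 to 5554) in 1369 control barcodes and at 6099 CPM (6046 to 6152) in 892 barcodes of the KO library, above the levels of endothelial cells in the same libraries.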
